A study of Solanum lycopersicum with 86 samples.

Results

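EID1, LNK2, FKF1, ZTL and the cycling DOF factors CDF1 to CDF5 are genes through which light reaches the circadian clock and the day-length pathway of tomato (Solanum lycopersicum). They were taken as a list of 9 gene identifiers, and 7 of the 9 had a row among the 23050 genes of the expression table. These 7 were EID1 (Solyc09g075080), LNK2 (Solyc01g068560), ZTL (Solyc07g017750), CDF2 (Solyc05g007880), CDF3 (Solyc06g069760), CDF4 (Solyc02g067230) and CDF5 (Solyc02g088070). FKF1 (Solyc01g005300) and CDF1 (Solyc03g115940) were not analysed here. All 7 passed the filter on low values and were tested among 19029 genes.

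The circadian clock of plants is set by light through phytochromes, which sense red and far-red light, and through blue-light receptors. EID1 is an F-box protein that acts on phytochrome signalling in Arabidopsis, and cultivated tomato is known for EID1 and LNK2 alleles that slow its clock. LNK2 is a coactivator of clock transcription factors in Arabidopsis. ZTL and FKF1 are blue-light receptors with an F-box that mark clock and day-length proteins for degradation in Arabidopsis. CDF factors are DOF-type transcription factors, many of them with a daily rhythm, and in Arabidopsis they repress flowering genes until FKF1 has them removed.

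Added far-red light imitates the shade of neighbouring plants, whose leaves absorb red light and pass far-red light. The libraries came from wildtype plants of the cultivars Moneymaker (MM) and M82, grown at 20 °C and 70% humidity with 16 h of light and 8 h of dark, and all had 7 days of white light before the treatment. Far-red plants (FR) received 200 PAR of white light with added far-red light to a red to far-red ratio of 0.21, and control plants (WL) received 200 PAR of white light alone. The first internode was taken 6, 24, 30 and 48 h after the treatment began, and its pith, the innermost tissue, at 30 and 48 h. The 6 and 30 h samples therefore share a clock time, and so do the 24 and 48 h samples. The hour of the day at which treatment began was not used here. The 86 libraries, 2 to 6 per group, comprised 19 FR and 13 WL internodes and 8 FR and 6 WL piths of MM, and 11 FR and 15 WL internodes and 5 FR and 9 WL piths of M82. All 19 MM WL libraries carry the treatment tag FR, while their titles and sample codes say white light, and the groups follow the titles. Random-primed libraries were made from polyA RNA, and the levels given here are read counts that the authors had scaled between libraries, called scaled counts. A level depends on the length of the gene, so levels are compared only within a gene.

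The depth recovered from the scaled counts ranged from 0.769 to 22.1 M (mega) reads per library, with a median of 2.98 M. One read was worth between 0.0604 and 1.33 scaled counts. In 9 libraries genes that separate the cultivars went against the cultivar label (6 labelled M82 and 3 labelled MM). All 6 labelled M82 were WL libraries, so in M82 they stood only on the WL side of the comparison with FR. Among them were replicate 1 of the M82 WL piths at 30 h and replicate 1 at 48 h. In 3 libraries genes that separate the clock times went against the time label. The 3 were replicate 1 of MM WL internodes at 48 h and replicates 5 and 6 of M82 WL piths at 48 h. Replicate 5 was a borderline case, with a time score of 0.535 just below the midpoint of 0.658 that served as the cut. Replicate 1 of MM and replicate 6 of M82 scored -1.85 and -1.99. Fits without the 3 or the 12 leave out replicate 5 too. All 86 libraries enter the tests. Fits without all 12, and fits without the 9 or the 3 chosen after seeing the data, are given beside results that rest on these libraries. Markers that would check the tissue labels could not be matched to identifiers and were not examined. In bulk tissue, fewer cells that express a gene and less RNA per cell cannot be told apart.

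**Figure D1:**
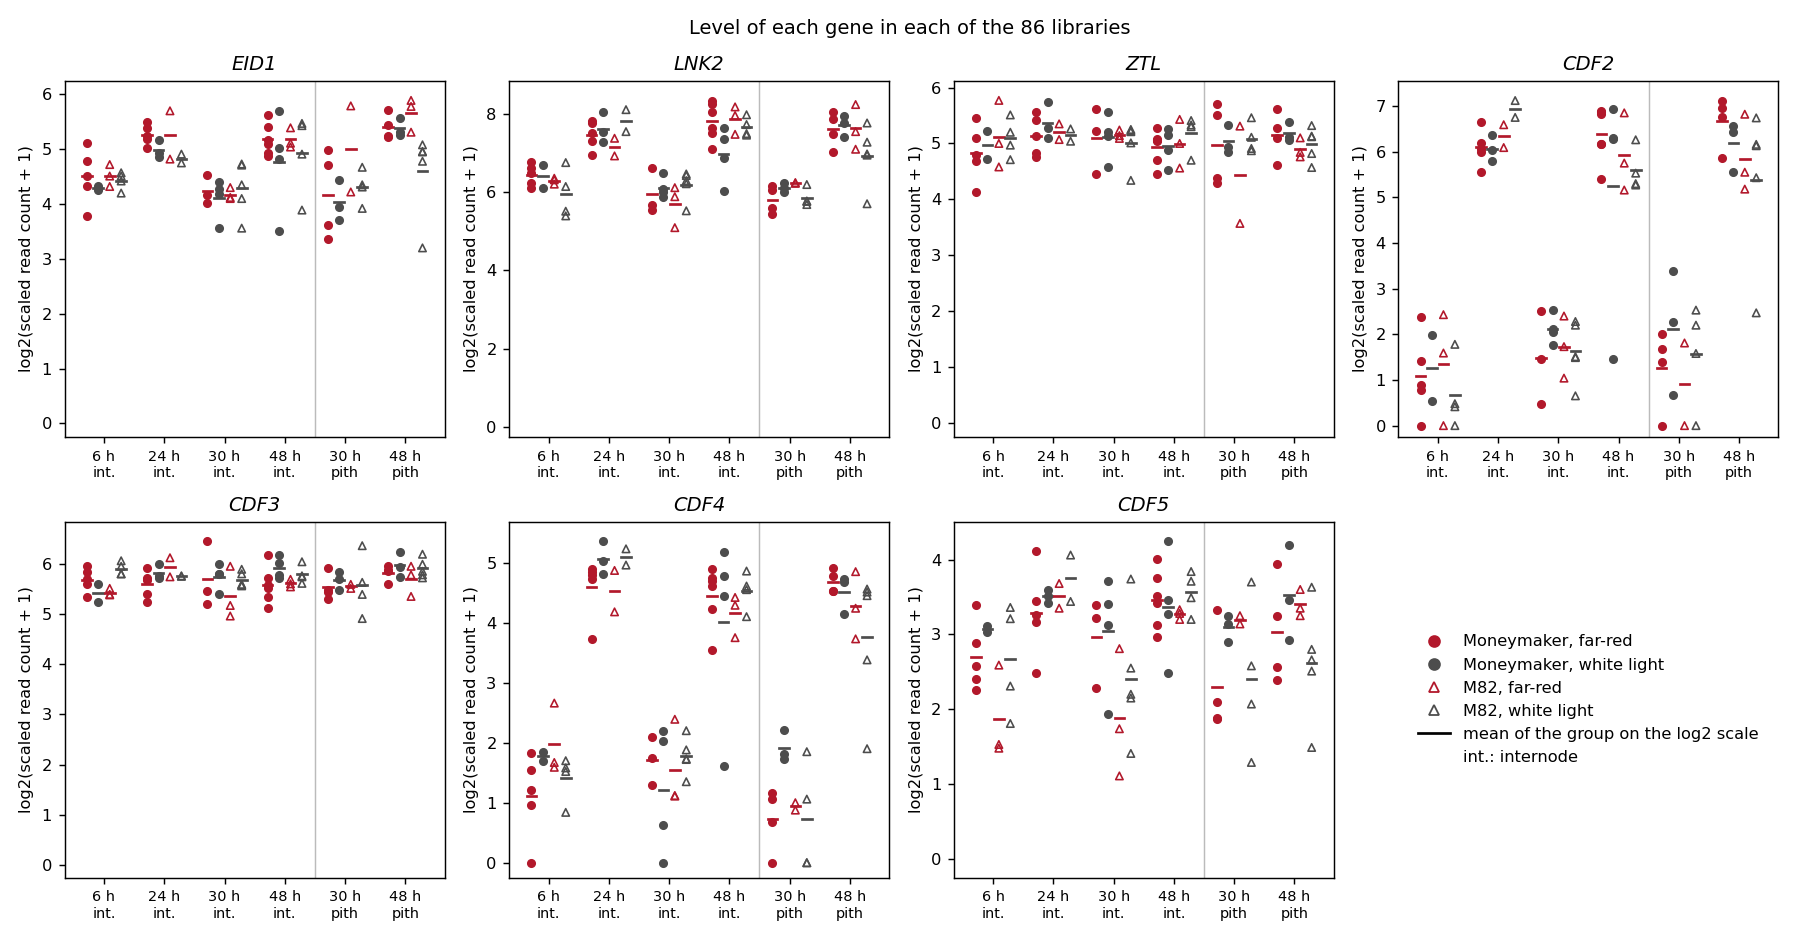
Level of each gene in each library as log2(scaled count + 1), by time and tissue, with FR left of WL within each cultivar and a short line at the mean of each group. CDF2 and CDF4 are low at 6 and 30 h and high at 24 and 48 h, LNK2 follows them with a smaller step, and ZTL and CDF3 show no such step.

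Clock time gave most of the calls among these genes. In MM internodes 4 of the 7 genes were higher at 24 and 48 h than at 6 and 30 h, namely EID1, LNK2, CDF2 and CDF4, and in M82 internodes CDF5 joined them, making 5 of 7. In pith the comparison of 48 h with 30 h called EID1, LNK2, CDF2 and CDF4 in MM and LNK2, CDF2 and CDF4 in M82. No gene of the 7 was called lower at 24 and 48 h, or at 48 h in pith. All tests used limma on log2(scaled count + 1) with Benjamini-Hochberg adjustment over all genes tested, called at an adjusted p below 0.05. The share of all tested genes called in either direction was 9.87% in MM internodes, 9.09% in M82 internodes, 7.32% in MM pith and 4.14% in M82 pith. The shares called higher were 5.68%, 5.28%, 4.77% and 2.49% in the same order. The median log2 difference of the 7 genes was 0.77 in MM internodes, 1.31 in M82 internodes, 1.30 in MM pith and 0.47 in M82 pith, against medians of all tested genes of 0.00, 0.03, 0.03 and 0.01.

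EID1, the F-box gene of phytochrome signalling, averaged 22.9 ± 7.93, 37.7 ± 4.88, 18.1 ± 3.60 and 36.0 ± 7.67 scaled counts in MM FR internodes at 6, 24, 30 and 48 h (SD, n = 5, 5, 3 and 6), and 18.4 ± 0.665, 30.7 ± 3.63, 16.6 ± 4.05 and 30.1 ± 16.7 in MM WL internodes (SD, n = 2, 3, 4 and 4). M82 internodes averaged 22.0 ± 3.22, 39.1 ± 16.8, 17.1 ± 1.41 and 35.4 ± 4.82 in FR (SD, n = 3, 2, 3 and 3), and 20.6 ± 2.35, 27.5 ± 2.27, 19.4 ± 6.23 and 32.0 ± 13.7 in WL (SD, n = 4, 2, 5 and 4). All 8 internode means at 24 and 48 h lay above all 8 at 6 and 30 h, the closest pair being 27.5 and 22.9. By library, EID1 had 10.3, 34.0 and 50.8 scaled counts (lowest, median and highest of 18) in MM internodes at 24 and 48 h, against 10.8, 18.6 and 33.8 (of 14) at 6 and 30 h. The lowest value at 24 and 48 h belonged to the library that went against its time label, and the ranges overlapped. The log2 difference was 0.77 ± 0.18 (SE, adjusted p = 0.0012 by limma). In M82 internodes EID1 had 13.8, 31.8 and 51.0 scaled counts (of 11) at 24 and 48 h, against 10.8, 19.4 and 25.5 (of 15) at 6 and 30 h. Of the 11 libraries at 24 and 48 h, 10 lay above every library at 6 and 30 h. The log2 difference there was 0.70 ± 0.20 (SE, adjusted p = 0.011 by limma), and it missed the threshold without replicate 3 of M82 FR internodes at 24 h (0.59, adjusted p = 0.09).

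In MM pith EID1 had 42.6, 36.8, 51.8 and 36.7 scaled counts in FR and 46.5, 37.4 and 38.9 in WL at 48 h, against 11.3, 9.29, 25.1 and 30.6 in FR and 14.5, 12.1 and 20.8 in WL at 30 h. The 2 times did not overlap, and the log2 difference was 1.30 ± 0.26 (SE, adjusted p = 0.0002 by limma). In M82 pith the times overlapped, with a log2 difference of 0.47 ± 0.27 (SE, adjusted p = 0.43 by limma). It was 0.67 ± 0.25 without the 3 libraries against a time label (SE, adjusted p = 0.1 by limma) and 0.58 ± 0.27 without all 12 (SE, adjusted p = 0.26 by limma). Whether the 2 cultivars differ in this was not tested.

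LNK2, the clock coactivator, was higher at 24 and 48 h, or at 48 h in pith, in both cultivars and in both tissues. In MM internodes its level at 6, 24, 30 and 48 h averaged 86.9 ± 15.9, 179 ± 41.4, 64.2 ± 28.6 and 233 ± 73.4 scaled counts in FR (SD, n = 5, 5, 3 and 6) and 85.1 ± 23.9, 199 ± 55.8, 68.8 ± 13.6 and 135 ± 57.4 in WL (SD, n = 2, 3, 4 and 4). In M82 internodes it averaged 77.1 ± 3.99, 142 ± 31.5, 52.9 ± 18.0 and 237 ± 56.0 in FR (SD, n = 3, 2, 3 and 3) and 65.5 ± 30.4, 229 ± 62.6, 73.3 ± 16.9 and 203 ± 35.1 in WL (SD, n = 4, 2, 5 and 4). Every group mean at 24 and 48 h lay above every group mean at 6 and 30 h. In M82 internodes the single libraries did not overlap either, with 120 to 288 at 24 and 48 h against 33.0 to 107 at 6 and 30 h. In MM internodes 17 of the 18 libraries at 24 and 48 h lay above every library at 6 and 30 h. The exception, with 64.4, was replicate 1 of WL at 48 h, which went against its time label and is part of the mean of 135. The log2 difference was 1.24 ± 0.16 (SE, adjusted p = 5.1e-09 by limma) in MM internodes and 1.60 ± 0.18 (SE, adjusted p = 3.7e-11 by limma) in M82 internodes.

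In pith LNK2 had 130, 216 and 259 scaled counts (lowest, median and highest of 7) in MM at 48 h, against 42.4, 64.9 and 73.5 (of 7) at 30 h. In M82 pith it had 50.9, 144 and 300 (of 8) at 48 h, against 50.1, 62.8 and 74.8 (of 6) at 30 h. The MM libraries did not overlap, and in M82 1 library at 48 h, replicate 6 of WL with 50.9, fell among those of 30 h. The log2 differences were 1.70 ± 0.23 in MM (SE, adjusted p = 8.1e-08 by limma) and 1.23 ± 0.24 in M82 (SE, adjusted p = 0.00035 by limma).

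ZTL, the blue-light receptor, had nearly the same level at both clock times. Over all tissues and both cultivars it had 20.8, 33.2 and 53.0 scaled counts (lowest, median and highest of 44 libraries) at 24 and 48 h, against 10.9, 33.4 and 53.5 (of 42) at 6 and 30 h. Its 24 group means lay between 24.8 ± 19.7 in M82 FR pith at 30 h (SD, n = 2) and 41.3 ± 10.4 in MM WL internodes at 24 h (SD, n = 3). The log2 difference was 0.09 in MM internodes, with a 95% interval of -0.22 to 0.40 and an adjusted p of 0.85 by limma. In M82 internodes it was 0.04, with an interval of -0.30 to 0.38 and an adjusted p of 0.97 by limma. In pith it was 0.16 (-0.29 to 0.61) in MM and 0.18 (-0.29 to 0.65) in M82.

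**Figure D2:**
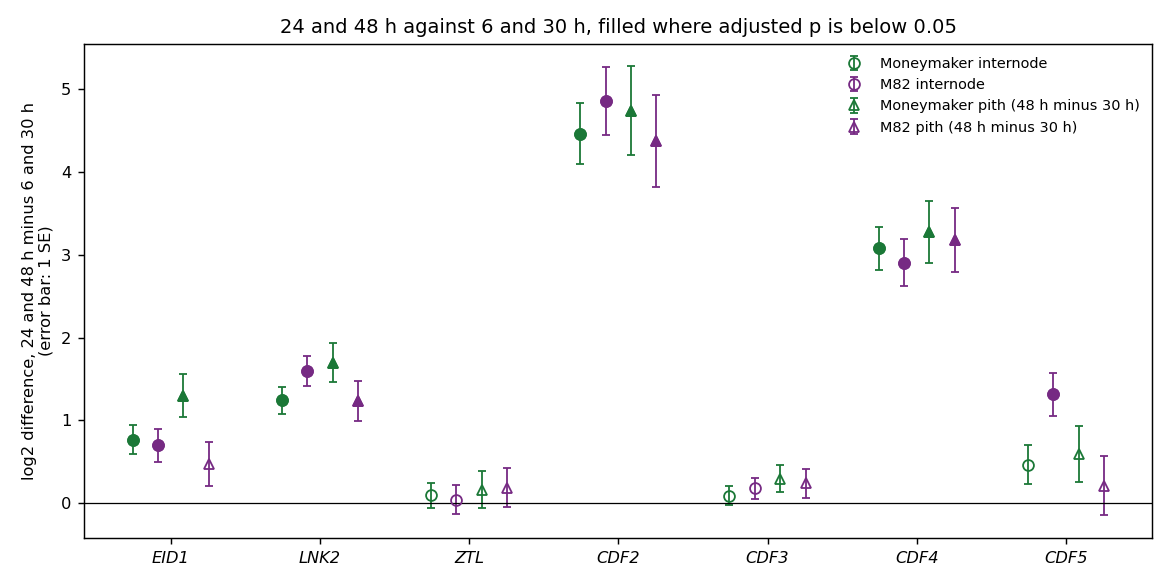
Log2 difference between clock times with its SE for each gene in MM and M82 internodes (24 and 48 h minus 6 and 30 h, circles) and pith (48 h minus 30 h, triangles), filled where the adjusted p is below 0.05. CDF2 lies between 4.38 and 4.86 and CDF4 between 2.90 and 3.28 in all 4 comparisons, while ZTL and CDF3 lie between 0.04 and 0.29.

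CDF2 had the largest difference between clock times of the 7 genes and one of the largest of all genes tested. Ranked by log2 difference it was number 2 of 19029 genes in MM internodes and number 1 in M82 internodes and in the pith of both cultivars. At 6, 24, 30 and 48 h it averaged 1.47 ± 1.61, 69.3 ± 19.3, 2.27 ± 2.21 and 88.1 ± 31.5 scaled counts in MM FR internodes and 1.69 ± 1.76, 66.9 ± 13.6, 3.40 ± 1.02 and 69.3 ± 49.9 in MM WL internodes (SD). M82 internodes averaged 2.13 ± 2.19, 81.5 ± 20.1, 2.55 ± 1.63 and 67.5 ± 41.9 in FR and 0.787 ± 1.10, 123 ± 22.0, 2.34 ± 1.38 and 49.2 ± 17.9 in WL (SD). The lowest of these means at 24 and 48 h was 49.2, and the highest at 6 and 30 h was 3.40. Over the 2 clock times its mean was 75.2 ± 30.5 scaled counts at 24 and 48 h (SD, n = 18) against 2.23 ± 1.65 at 6 and 30 h (SD, n = 14) in MM internodes. In M82 internodes it was 73.4 ± 35.7 at 24 and 48 h (SD, n = 11) against 1.93 ± 1.55 at 6 and 30 h (SD, n = 15). The ratios of these means were 33.7 and 38.1. The log2 differences were 4.46 ± 0.37 in MM (SE, adjusted p = 3.2e-15 by limma) and 4.86 ± 0.41 in M82 (SE, adjusted p = 1.1e-14 by limma), on the log2(scaled count + 1) scale, which understates the change of a gene that is low in one group.

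In single libraries CDF2 had 1.77, 71.7 and 122 scaled counts (lowest, median and highest of 18) at 24 and 48 h in MM internodes, against 0, 2.05 and 4.80 (of 14) at 6 and 30 h. The library with 1.77 was replicate 1 of MM WL at 48 h, which went against its time label, and the next lowest at 24 and 48 h had 41.5. M82 internodes had 34.8 to 138 at 24 and 48 h against 0 to 4.38 at 6 and 30 h, so that no library overlapped. The low levels rest on few reads, with a median of 6 reads at 6 and 30 h in MM internodes and 4 in M82 internodes. CDF2 had no read in 6 of the 42 libraries at 6 and 30 h, where 3 reads would have been worth 0.836 to 3.98 scaled counts, a limit that covers counting error only.

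CDF2 in MM pith had 138, 57.6, 107 and 123 scaled counts in FR and 94.1, 85.4 and 46.2 in WL at 48 h, against 2.19, 0, 2.99 and 1.64 in FR and 3.81, 0.603 and 9.44 in WL at 30 h. In M82 pith it had 45.9, 112 and 35.2 in FR and 69.2, 70.4, 106, 42.0 and 4.54 in WL at 48 h, against 2.51 and 0 in FR and 0, 3.60, 2.00 and 4.78 in WL at 30 h. Only the M82 WL library with 4.54 at 48 h, 1 of the 3 that went against their time label, lay within the range of 30 h. The log2 differences were 4.74 ± 0.54 in MM pith (SE, adjusted p = 6.6e-10 by limma) and 4.38 ± 0.56 in M82 pith (SE, adjusted p = 5.7e-08 by limma).

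CDF4 showed the same split at a smaller step. Its group means lay between 15.4 and 33.3 scaled counts at 24 and 48 h and between 0.735 and 3.17 at 6 and 30 h, over both tissues. In MM internodes it had 2.06, 26.0 and 40.1 scaled counts (lowest, median and highest of 18) at 24 and 48 h, against 0, 2.07 and 3.60 (of 14) at 6 and 30 h. M82 internodes had 12.5, 22.4 and 36.4 (of 11) at 24 and 48 h, against 0.789, 2.19 and 5.30 (of 15) at 6 and 30 h. The ranges met in MM through the same replicate 1 of WL at 48 h, with 2.06, and stayed apart in M82. The log2 differences were 3.08 ± 0.26 in MM (SE, adjusted p = 1.7e-15 by limma) and 2.90 ± 0.28 in M82 (SE, adjusted p = 4.4e-13 by limma), which ranked 13 and 18 among the genes tested.

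In pith CDF4 had 26.3, 22.1, 22.0 and 29.0 scaled counts in MM FR and 24.7, 25.3 and 16.7 in MM WL at 48 h, against 1.25, 0, 0.598 and 1.09 in FR and 2.28, 3.62 and 2.52 in WL at 30 h. In M82 pith it had 17.9, 27.9 and 12.3 in FR and 20.8, 22.6, 21.7, 9.40 and 2.73 in WL at 48 h, against 1.00 and 0.836 in FR and 0, 1.08, 2.60 and 0 in WL at 30 h. No library overlapped in either cultivar, though 2.73 and 2.60 in M82 stood on 3 and 13 reads. The log2 differences were 3.28 ± 0.37 in MM (SE, adjusted p = 3.9e-10 by limma) and 3.18 ± 0.39 in M82 (SE, adjusted p = 1.4e-08 by limma).

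CDF5 was higher at 24 and 48 h in M82 internodes, where it had 8.16, 9.82 and 15.7 scaled counts (lowest, median and highest of 11), against 1.16, 3.60 and 12.4 (of 15) at 6 and 30 h. Of the 15 libraries at 6 and 30 h, 12 lay below every library at 24 and 48 h, and the log2 difference was 1.31 ± 0.26 (SE, adjusted p = 0.0001 by limma). In MM internodes CDF5 had 4.58, 9.81 and 18.0 (of 18) at 24 and 48 h, against 2.83, 7.40 and 12.2 (of 14) at 6 and 30 h, with overlapping ranges. The log2 difference there was 0.46 ± 0.24 (SE, adjusted p = 0.27 by limma). The difference between the cultivars, MM minus M82, was -0.85 ± 0.35 with an unadjusted p of 0.017 and an adjusted p of 1 by limma. In pith neither cultivar passed the threshold, with log2 differences of 0.59 ± 0.34 in MM (SE, adjusted p = 0.36 by limma) and 0.21 ± 0.36 in M82 (SE, adjusted p = 0.87 by limma). The M82 value was 0.41 ± 0.37 without the 3 libraries against a time label (SE, adjusted p = 0.67 by limma) and 0.48 ± 0.38 without all 12 (SE, adjusted p = 0.65 by limma).

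CDF3 was not called between clock times, and its 4 point estimates were small and all higher at 24 and 48 h, or at 48 h in pith. Over all tissues and both cultivars it had 33.8, 52.8 and 74.4 scaled counts (lowest, median and highest of 44 libraries) at 24 and 48 h, against 29.0, 47.1 and 86.2 (of 42) at 6 and 30 h. Its 24 group means lay between 41.9 ± 16.5 in M82 FR internodes at 30 h and 62.3 ± 11.3 in MM WL pith at 48 h (SD, n = 3 each). The log2 difference was 0.09 (95% interval -0.14 to 0.32) in MM internodes and 0.18 (-0.07 to 0.43) in M82 internodes, and in pith 0.29 (-0.04 to 0.63) in MM and 0.24 (-0.11 to 0.59) in M82. None of the 4 passed the threshold by limma, the lowest adjusted p being 0.34. The upper bounds lie below the lower bounds of CDF2 and CDF4 in each of the 4 comparisons.

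**Figure D3:**
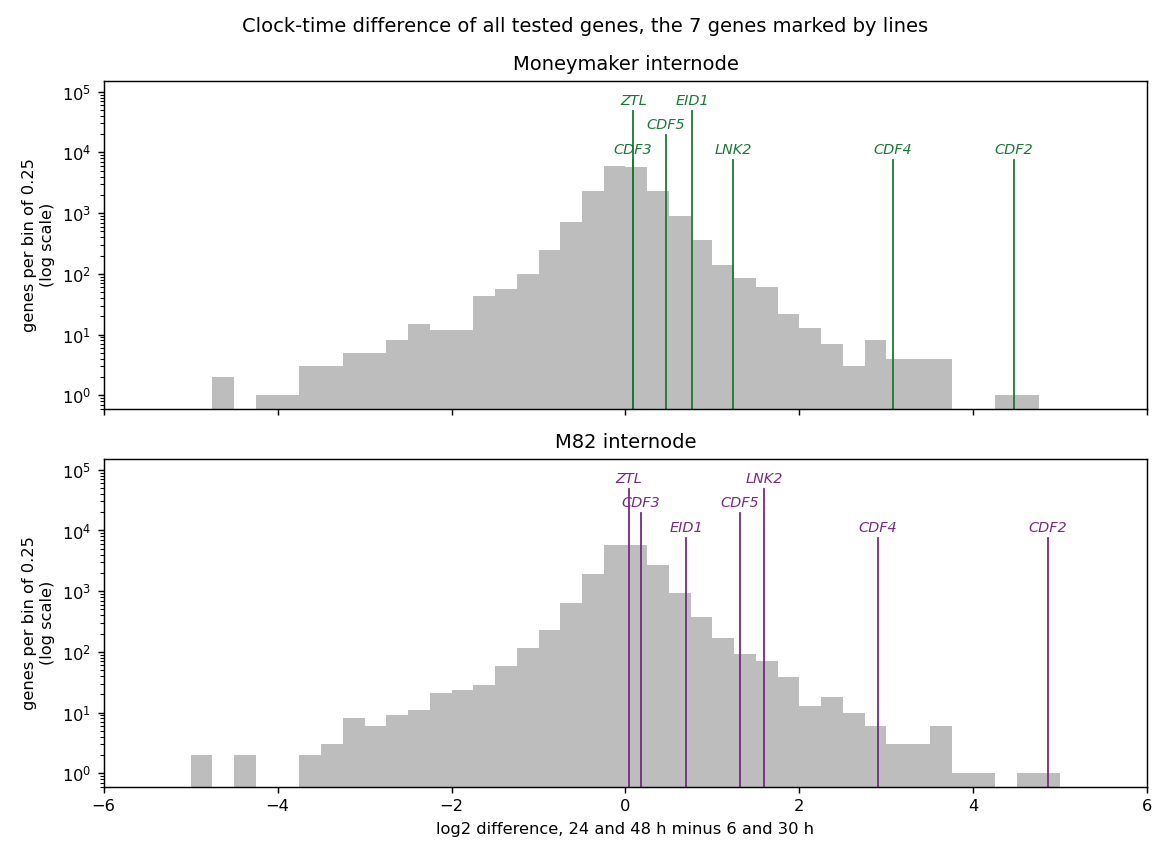
Distribution of the log2 difference between clock times (24 and 48 h minus 6 and 30 h) of the 19029 genes tested in MM and M82 internodes, on a log count axis in bins of 0.25, with the 7 genes marked by lines. CDF2 stands at the right edge at 4.46 and 4.86 and CDF4 at 3.08 and 2.90, while ZTL and CDF3 stand in the centre.

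Without the 3 libraries that went against their time label, the lowest CDF2 value at 24 and 48 h was 34.8 scaled counts, against a highest value of 9.44 at 6 and 30 h, over both cultivars and both tissues. For CDF4 these values were 10.6 and 5.30, and for LNK2 115 and 107. These 3 genes therefore did not overlap between clock times in the 41 and 42 libraries, and EID1, ZTL, CDF3 and CDF5 did. Of all tested genes 0.268% were higher with no overlap in the same libraries, and 0.315% without all 12 libraries whose genes contradicted a label, where the same 3 genes were free of overlap. The 3 libraries were picked by genes that differ between clock times, so these values are no independent check. With all libraries none of the 7 genes was free of overlap over both cultivars and tissues, and 0% of all genes were higher with no overlap. This share and those that follow count only genes higher at 24 and 48 h, or at 48 h in pith. Shares of genes lower with no overlap are not given here. Within 1 cultivar and tissue and with all libraries, no overlap was found for EID1, LNK2, CDF2 and CDF4 in MM pith (1.6% of all genes), for LNK2, CDF2 and CDF4 in M82 internodes (0.715%), for CDF4 in M82 pith (0.2%) and for none in MM internodes (0.0263%).

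For LNK2, CDF2 and CDF4 the step between clock times was called in each light in the internodes of both cultivars. In MM internodes under FR limma called EID1, LNK2, CDF2 and CDF4 higher (7.37% of all genes called in either direction and 4.2% called higher), and under WL it called LNK2, CDF2 and CDF4 (2.65% and 1.43%). In M82 internodes it called LNK2, CDF2, CDF4 and CDF5 under FR (4.51% and 2.62%) and the same 4 under WL (5.02% and 2.97%). CDF2 differed by 4.96 ± 0.47 in MM FR and 3.97 ± 0.57 in MM WL, and by 4.60 ± 0.61 in M82 FR and 5.12 ± 0.54 in M82 WL, as log2 differences with SE. CDF4 differed by 3.12 ± 0.33 in MM FR and 3.04 ± 0.40 in MM WL, and by 2.59 ± 0.42 in M82 FR and 3.22 ± 0.38 in M82 WL. LNK2 differed by 1.44 ± 0.20 in MM FR and 1.03 ± 0.25 in MM WL, and by 1.51 ± 0.26 in M82 FR and 1.67 ± 0.24 in M82 WL. EID1 differed by 0.85 ± 0.23 in MM FR (adjusted p = 0.0076 by limma) and 0.68 ± 0.28 in MM WL (adjusted p = 0.25 by limma), and by 0.87 ± 0.29 in M82 FR (adjusted p = 0.071 by limma) and 0.52 ± 0.26 in M82 WL (adjusted p = 0.36 by limma). Without the 3 libraries against a time label EID1 was called in MM WL too (0.89, adjusted p = 0.017) and in M82 FR (0.87, adjusted p = 0.024), by limma. Those 3 were picked by genes that differ between clock times, so these calls are no independent check. None of the 3 was an M82 FR internode, and the EID1 difference there stayed at 0.87. The LNK2 call in MM WL was lost without replicate 5 of MM WL internodes at 6 h (0.89, adjusted p = 0.15). The CDF5 call in M82 WL (1.11, adjusted p = 0.042) was lost with the replicate block (0.87, adjusted p = 0.11) and without the 12 libraries against a label (1.28, adjusted p = 0.077).

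None of the 7 genes was called between the days. Comparing 30 and 48 h with 6 and 24 h, limma called none of the 7 genes and 0% of all genes in the internodes of either cultivar. At an unadjusted p under 0.05 the count was 0 of 7 in each, against 665 of all 19029 genes tested in MM and 492 in M82. The log2 differences of the 7 genes lay between -0.29 (CDF4) and 0.18 (CDF2) in MM and between -0.25 (CDF4) and 0.05 (LNK2) in M82. edgeR and DESeq2 on recovered reads called 0 as well. In M82 WL internodes the CDF2 values at 48 h (75.6, 37.6, 45.2 and 38.3 scaled counts) all lay below those at 24 h (107 and 138), while in M82 FR the values at 48 h (53.0, 115 and 34.8) spanned those at 24 h (67.3 and 95.6). That pair of times was not tested on its own. The WL library with 107 at 24 h, replicate 1, was among those that went against their cultivar label. The share of all genes with no overlap between 24 and 48 h in M82 WL is not given here.

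**Figure D4:**
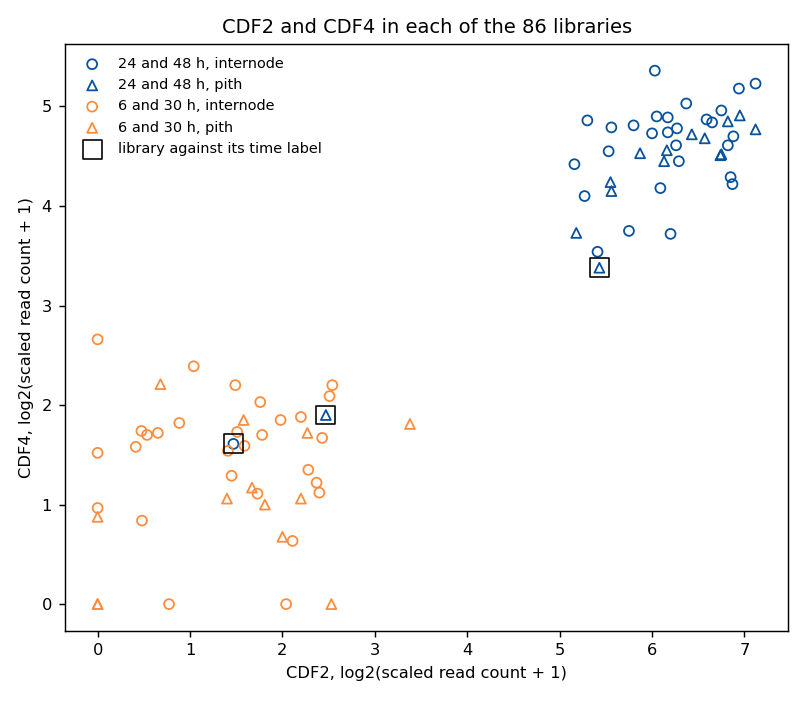
Level of CDF2 (horizontal) and CDF4 (vertical) in each of the 86 libraries as log2(scaled count + 1), with circles for internode, triangles for pith and squares around the 3 libraries that went against their time label. Libraries at 24 and 48 h lie at the upper right and those at 6 and 30 h at the lower left, apart from 2 of the marked libraries from 48 h.

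CDF2 and CDF4 moved together over the 24 groups, with a Pearson correlation of 0.974 between their group means of log2(scaled count + 1). LNK2 followed both, at 0.936 with CDF2 and 0.943 with CDF4, and EID1 followed LNK2 at 0.855. The correlation of ZTL was 0.00302 with EID1 and 0.414 with CDF4. Taking out the group means, CDF2 and CDF4 correlated at 0.532 over the 86 libraries and EID1 and LNK2 at 0.429. The 86 include the 3 libraries that went against their time label, and no correlation without them is given here. In replicate 1 of MM WL internodes at 48 h, 1 of the 3, all 4 genes had the lowest value of their group. There CDF2 had 1.77, CDF4 2.06, EID1 10.3 and LNK2 64.4 scaled counts. All these correlations are descriptions without a test. The 24 group means share the clock times, the cultivars, the tissues and the lights, and genes measured in 1 library share its depth. Among the other tested genes 187 reached a correlation of 0.9 with CDF2, 179 with CDF4, 161 with LNK2 and 8 with EID1, and none did with ZTL, CDF3 or CDF5. For CDF3, picked as the CDF gene with the highest mean scaled count, a value that also depends on gene length, the most alike genes were Solyc08g015780 at 0.776 and Solyc09g008860 at 0.761 over the 24 group means.

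Far-red light gave 1 call among the 7 genes, in 1 of 4 comparisons. Averaged over times, FR differed from WL for 0 of the 7 genes in MM internodes, MM pith and M82 internodes and for 1 of 7, EID1, in M82 pith, by limma. The shares of all genes called were 1.59%, 0.504%, 0.715% and 3.71% in the same order, and 2.28% were called higher in M82 pith. The 706 genes called in M82 pith became 168 without the 12 libraries against a label, 343 without the 9 against a cultivar label and 364 without the 3 against a time label. At an unadjusted p under 0.05 the counts were 0, 0, 0 and 3 of 7, against 2396, 1506, 1547 and 4075 of all 19029 genes tested. edgeR and DESeq2 on recovered reads also called 0, 0, 0 and 1. The median log2 difference of the 7 genes was -0.05 in MM internodes, -0.18 in MM pith, -0.15 in M82 internodes and 0.37 in M82 pith, against 0.01, -0.04, -0.01 and 0.01 for all tested genes.

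EID1 in M82 pith had 38.7, 54.0 and 58.2 scaled counts in FR at 48 h, against 32.9, 29.9, 30.1, 26.4 and 8.18 in WL. At 30 h it had 17.6 and 54.4 in FR, against 14.1, 19.4, 18.8 and 24.4 in WL. At 48 h the 3 FR and 5 WL libraries did not overlap, and at 30 h 1 FR library was high and the other lay among those of WL. The share of all genes without overlap between the lights at 48 h is not given here. The WL library with 8.18 was replicate 6, which went against its time label and had 9 reads of EID1. The log2 difference over both times was 0.88 ± 0.27 (SE, 95% interval 0.34 to 1.42, adjusted p = 0.048 by limma). It fell to 0.63 (adjusted p = 0.27) without the 12 libraries whose genes contradicted a label and to 0.49 (adjusted p = 0.4) without the FR library with 54.4 at 30 h, so the call rests on single libraries. At 48 h alone the log2 difference was 1.07 ± 0.35 (SE, adjusted p = 0.088 by limma), or 0.66 ± 0.34 without the 3 libraries against a time label (SE, adjusted p = 0.4 by limma), and at 30 h alone 0.69 ± 0.41 (SE, adjusted p = 0.57 by limma).

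The other 2 genes of M82 pith with an unadjusted p under 0.05 were LNK2 and CDF5. LNK2 had 135, 300 and 185 scaled counts in FR at 48 h, against 122, 216, 153, 125 and 50.9 in WL, and 74.8 and 73.6 in FR at 30 h, against 53.7, 71.9, 50.1 and 53.1 in WL. FR and WL overlapped at 48 h. At 30 h they did not, but only 2 FR libraries stood against 4 of WL, with 73.6 as the lowest in FR and 71.9 as the highest in WL. The share of all genes without such overlap is not given here. The log2 difference was 0.54 ± 0.24 for LNK2 (SE, adjusted p = 0.18 by limma) and 0.78 ± 0.36 for CDF5 (SE, adjusted p = 0.19 by limma). Without the 12 libraries against a label LNK2 differed by 0.23 ± 0.24 (SE, adjusted p = 0.69 by limma), and at 48 h it averaged 207 ± 84.6 scaled counts in FR (SD, n = 3) against 185 ± 44.0 in the 2 WL libraries left (SD, n = 2). Without the 3 against a time label the difference of LNK2 was 0.34 ± 0.23 (SE, adjusted p = 0.42 by limma). For CDF5 it was 0.94 ± 0.38 without the 12 (SE, adjusted p = 0.23 by limma) and 0.58 ± 0.37 without the 3 (SE, adjusted p = 0.4 by limma). CDF5 averaged 9.03 ± 1.27 scaled counts in FR (SD, n = 5) and 5.64 ± 3.76 in WL (SD, n = 9) over both times, with overlapping ranges of 7.80 to 11.1 in FR and 1.44 to 12 in WL.

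**Figure D5:**
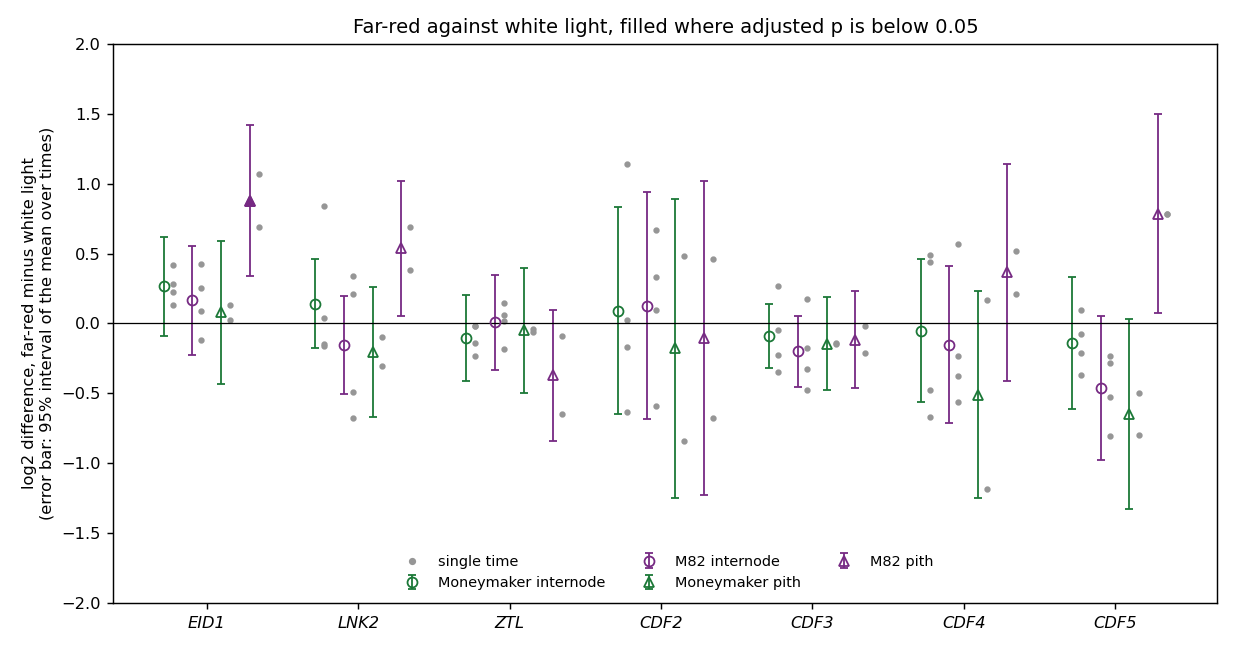
Log2 difference between FR and WL of each gene, averaged over times with its 95% interval, in MM and M82 internodes (circles) and pith (triangles), filled where the adjusted p is below 0.05, with grey points for single times. EID1 in M82 pith, at 0.88, is the only filled point, and the intervals of CDF2 and CDF4 are the widest.

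EID1 was higher in FR than in WL by its point estimate in 11 of the 12 comparisons at single times, ranging from -0.12 in M82 internodes at 30 h to 1.07 in M82 pith at 48 h, but none of them passed the threshold. In MM internodes its difference at 48 h went from 0.42 to -0.0015 without the 3 libraries against a time label. At 30 h it went from 0.14 to -0.05 without the 12 against a label. Such counts of signs are not set against those of all genes here. CDF3 was lower in FR by its point estimate in 10 of 12, from -0.47 to 0.27, and ZTL and CDF5 in 9 of 12 each. In all, 0 of 84 tests at single times (7 genes in 12 comparisons) passed by limma, where 0.227% of all gene tests in these comparisons were called. An unadjusted p under 0.05 was reached in 5 of 84, and by 511 to 3424 of all 19029 genes tested per comparison. edgeR and DESeq2 on recovered reads called 0 of 84 as well. Pooled over times in internodes, EID1 libraries had 12.8, 31.6 and 48.4 scaled counts (lowest, median and highest of 19) in FR against 10.3, 20.1 and 50.8 (of 13) in WL in MM, and 16.2, 25.4 and 51.0 (of 11) in FR against 10.8, 22.7 and 43.2 (of 15) in WL in M82. The pooled medians also carry the unequal numbers of libraries per time. Within MM, EID1 had 28.2, 35.3 and 48.4 (of 11) in FR against 10.3, 29.5 and 50.8 (of 7) in WL at 24 and 48 h, and 12.8, 20.5 and 33.8 (of 8) in FR against 10.8, 18.2 and 20.1 (of 6) in WL at 6 and 30 h. The log2 differences, which weight the 4 times equally, were 0.27 (95% interval -0.09 to 0.62) in MM and 0.16 (-0.23 to 0.56) in M82.

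For CDF2 and CDF4 the comparison of lights was imprecise. CDF2 differed between FR and WL by 0.09 (95% interval -0.65 to 0.83) in MM internodes, -0.18 (-1.25 to 0.89) in MM pith, 0.13 (-0.69 to 0.94) in M82 internodes and -0.11 (-1.23 to 1.02) in M82 pith, as log2 differences. These intervals reach past a log2 difference of 0.5 in both directions. The largest CDF2 difference at a single time, 1.14 ± 0.64 in MM internodes at 48 h (SE, adjusted p = 0.71 by limma), contains the WL library with 1.77 that went against its time label, and was -0.11 ± 0.52 without the 3 libraries against a time label (SE, adjusted p = 0.99 by limma). In M82 pith the CDF2 difference over both times was -0.58 ± 0.43 without those 3 (SE, adjusted p = 0.47 by limma) and -0.90 ± 0.46 without the 12 (SE, adjusted p = 0.37 by limma). CDF4 differed by -0.05 (-0.56 to 0.46), -0.51 (-1.25 to 0.23), -0.15 (-0.72 to 0.41) and 0.37 (-0.41 to 1.14) in the same order of tissues. CDF3, the least variable of the 7 within groups, was bounded more closely, at -0.09 (-0.32 to 0.14), -0.14 (-0.48 to 0.19), -0.20 (-0.45 to 0.05) and -0.12 (-0.46 to 0.23).

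None of the 7 genes was called between tissues or between cultivars. Pith against internode at 30 and 48 h gave 0 of 7 calls in MM (1.12% of all genes called) and 0 of 7 in M82 (2.73%), by limma. At an unadjusted p under 0.05 the counts were 0 in MM and 1 in M82, against 2053 and 2084 of all 19029 genes tested. The 1 in M82 was CDF4, which differed by -0.58 ± 0.27 (SE, adjusted p = 0.37 by limma), or by -0.32 ± 0.23 without the 12 libraries against a label (SE, adjusted p = 0.71 by limma). CDF4 had 0, 6.06 and 27.9 scaled counts (lowest, median and highest of 14) in M82 pith, against 1.16, 4.24 and 28.1 (of 15) in M82 internodes at the same times. The medians run the other way from the log2 difference. They also carry the unequal numbers of libraries at 30 and 48 h, which the log2 difference weights equally. MM against M82 gave 0 of 7 calls in internodes (0.977% of all genes) and 0 of 7 in pith (0.993%). None of the 7 had an unadjusted p under 0.05 in either, against 1714 and 2015 of all 19029 genes tested. The genes called were 186 in internodes and 189 in pith, against 469 and 335 without the 9 libraries against a cultivar label and 435 and 301 without all 12. None of the 7 was among them in any of these fits, the internode difference of CDF5 being 0.45 ± 0.18 without the 9 (SE, adjusted p = 0.2 by limma). The log2 differences between MM and M82 lay between -0.14 (CDF4) and 0.31 (CDF5) in internodes and between -0.14 (EID1) and 0.63 (CDF2) in pith. edgeR and DESeq2 on recovered reads called 0 in each of these comparisons.

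Whether the light response or the clock-time step itself differed between cultivars, tissues or conditions was tested with interaction terms. Of 42 interactions with light, 0 passed by limma (0% to 0.00526% of all genes per comparison), with 6 at an unadjusted p under 0.05 and a lowest adjusted p of 0.59. The 6 were those of EID1, LNK2 and CDF5 for the FR effect in pith between MM and M82, and for the FR effect in M82 between pith and internode. Of all 19029 genes tested, 1412 and 1587 had an unadjusted p under 0.05 in these comparisons, in the same order. The difference of the FR effect in pith, MM minus M82, was -0.80 ± 0.37 for EID1, -0.74 ± 0.34 for LNK2 and -1.43 ± 0.49 for CDF5 (SE, adjusted p of 0.67, 0.67 and 0.66 by limma). Without the 12 libraries against a label these were -0.52 ± 0.36, -0.34 ± 0.32 and -1.51 ± 0.50 (SE, adjusted p of 0.91, 0.92 and 0.91 by limma). Of 21 interactions with clock time, 0 passed by limma (0% of all genes), with 2 at an unadjusted p under 0.05, both of CDF5, and a lowest adjusted p of 0.96. They compared pith with internode in M82 and MM with M82 internodes. An unadjusted p under 0.05 was reached there by 928 and 576 of all 19029 genes tested. edgeR and DESeq2 on recovered reads called 0 of the interactions of these genes. For CDF2 the step between clock times differed between MM and M82 internodes by -0.39 (95% interval -1.49 to 0.70) and between pith and internode by 0.72 (-0.73 to 2.18) in MM and 0.30 (-1.24 to 1.83) in M82.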

How the data were processed

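RNA of 86 tomato libraries was sequenced, and the table used here gives 1 value per gene and library. Per the submitters' processing notes, the authors used FastQC, Trim Galore, STAR and featureCounts. No label or header used here states their versions or settings, or the genome build. The deposited values are a signal, read counts per gene that the authors scaled between libraries. Dividing each library by the value of 1 read gave whole reads for 100% of values up to 2000 reads, within a tolerance of 0.02.

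Values were tested as log2(value + 1) with limma 3.58.1 in R 4.3.3, in 1 fit of 24 group means over all 86 libraries, on the 19029 of 23050 genes whose mean value reached 1, with 39 contrasts. A p-value was adjusted over all tested genes by the Benjamini-Hochberg method and called below 0.05. It measures the spread between plants labelled as biological replicates. The tests ran as designed for scaled values, and edgeR 4.0.16 and DESeq2 1.42.0 on recovered reads were alternatives, with the others given in the closing section. The fits were also tested on simulated data. Scores from 40 genes per direction, none of the 7 among them, marked the libraries that went against a label.

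Replicate numbers mark plants that share a growth batch, per the series' design text. Title numbers were used, and 4 MM internode libraries at 48 h, numbered 7 or 8 in the titles, have 5 or 6 in the sample code. Same-numbered FR and WL libraries had a mean correlation of deviations of 0.05 (26 pairs), against -0.0086 for other numbers (125 pairs). Across tissues and times it was 0.12 (142 pairs) against -0.026 (651 pairs). No library was a duplicate of another in the same group.

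All 7 genes with a row are described, and genes alike in pattern were to be named for FKF1 and for the CDF gene of highest mean. Members and lists were chosen with earlier results of these data known. Pathway and tissue marker lists written by symbol were not used here, since these identifiers were not paired with symbols. FKF1 and CDF1 were not analysed here. Limits from counts of 0 cover counting error only, since reads without molecular identifiers are not independent molecules.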

Additional observations from a re-analysis of the deposited data

Results flagged for a closer look

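In 84 sets of 1 gene in 1 group of 4 to 6 libraries, 7 held a library that stood apart from the others of its group by Dixon's criterion, where chance flags about 1 set in 20. EID1 had 8.18 scaled counts, on 9 reads, in replicate 6 of M82 WL pith at 48 h, against 26.4 to 32.9 in the other libraries of that group. CDF2 had 1.77, on 6 reads, in replicate 1 of MM WL internodes at 48 h, against 76.1 to 122. Both libraries also went against their time label. LNK2 had 44.8 in replicate 2 of M82 WL internodes at 30 h, against 73.1 to 87.0. ZTL had 19.2 in replicate 4 of M82 WL internodes at 30 h, against 31.2 to 37.1, and 25.0 in replicate 1 of M82 WL internodes at 48 h, against 38.3 to 41.4. CDF4 had 12.2 in replicate 6 of MM FR internodes at 24 h, against 25.5 to 28.8. CDF5 had 9.07 in replicate 1 of MM FR pith at 30 h, against 2.65 to 3.27.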

How the results depend on the processing

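The counts of the 7 genes called between clock times (4 in MM internodes, 5 in M82 internodes, 4 in MM pith and 3 in M82 pith) stayed within 1.5 times under every alternative run. The call of EID1 between FR and WL in M82 pith, 1 gene of 7, became 0 with a pseudocount of 0.25 (adjusted p = 0.052), with no filter on low values (0.055), with DESeq2 size factors (0.067) and with the compared groups alone (0.17). It also became 0 without the 12 libraries against a label (difference 0.63, adjusted p = 0.27), without the 9 against a cultivar label (0.08) and without the 3 against a time label (0.12), the last 2 settings being chosen after seeing the data. It stayed 1 with TMM factors, the replicate block, edgeR and DESeq2, and was 0 to 1 when single libraries were left out. It was 0 without replicate 1, 3 or 4 of WL or replicate 3 of FR at 30 h, and without replicate 6 of WL or replicate 2 or 4 of FR at 48 h. Over all genes, 706 were called in M82 pith, against 74 with the compared groups alone and 992 with DESeq2, where the median log2 difference of all genes was -0.10, against 0.01 in limma. At single times the count was 0 to 1 over left-out libraries, with ZTL in M82 pith at 30 h called without replicate 1 of FR (-1.52, adjusted p = 0.049). The ZTL difference there, -0.65, became 0.23 (adjusted p = 0.94) without replicate 3 of FR at 30 h. In both cases the FR arm is 1 library, assumed to vary like the other groups, and the cause was not tested. EID1 within FR internodes of M82 was called by edgeR (adjusted p = 0.03) and DESeq2 (0.015), and CDF5 within WL internodes of M82 was not called by edgeR (0.058) nor without replicate 1 of M82 WL at 24 h (0.95, adjusted p = 0.29). The replicate block moved the calls within 1 light to 14, against 15 without it, and changed no other count of calls. The difference between cultivars could not be fitted with the block. Depth limits the low levels of CDF2 and CDF4 at 6 and 30 h, with medians of 5.5 and 5 reads.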
